A study of Mus musculus with 4 samples.

Results

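The 45 genes described here are cell cycle genes taken as a fixed list and matched by Ensembl identifier between the gene tables of the libraries, in which all 45 were present among 27514 shared genes. The list holds 24 genes of the G2 phase and mitosis (G2/M), 17 genes of DNA synthesis (S) and 4 genes that act in G1 or hold the cycle back. The measurements are single-cell RNA-seq counts from mouse at embryonic day (E) 8.5 and E9.5, made in droplets, in which each captured messenger RNA is counted once from its 3′ end by a unique molecular identifier (UMI). All embryos were of the Swiss Webster strain and carried 1 Rosa26-GFPflox reporter allele and 1 Tbx1Cre allele. The control (Ctrl) was Tbx1Cre/+;Rosa26-GFPflox/+ and the conditional knockout (cKO) was Tbx1Cre/flox;Rosa26-GFPflox/+, each at both stages, with 1 library per group. Tbx1Cre is a knock-in that takes away 1 working copy of Tbx1, so the controls carried that loss too, and the reporter marks every cell that expressed Cre together with its descendants. GFP-positive cells that excluded the dead-cell dye DAPI were sorted from the upper part of the body at E8.5 and from the pharyngeal apparatus with the heart at E9.5. The paper's summary of samples lists the back as well for both E9.5 libraries. Embryos were pooled within a library, and stage, dissection and library cannot be told apart.

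A dividing cell copies its DNA in S phase and separates the copies in mitosis, with the gap phases G1 and G2 between these steps. Transcripts of the replication machinery are made mainly around the G1 to S transition under E2F transcription factors, and those of the mitotic machinery mainly in G2 and M under the B-MYB, MuvB and FOXM1 complexes. The E9.5 pharyngeal apparatus is a region of fast growth, and cardiomyocytes are known to divide more slowly than the progenitors around them as they build sarcomeres. D-type cyclins couple growth signals to entry into the cycle, whereas Cdkn1a and Cdkn1b encode the kinase inhibitors p21 and p27.

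The libraries held 1434 cells (Ctrl E8.5), 1090 cells (cKO E8.5), 5453 cells (Ctrl E9.5) and 6266 cells (cKO E9.5), with 25391654 to 104773150 UMIs each. Levels are given as UMIs per 1000000 UMIs of the shared genes (UPM), and the 45 genes together took 0.503%, 0.492%, 0.653% and 0.512% of these UMIs in the same order. With 1 library per group there is no replicate error and no test, and every interval below is a 95% interval for counting error only. Tbx1 was at 86.4, 118, 103 and 134 UPM in the same order, so its 3′ tags were not lower in the cKO libraries and cannot show a recombined allele. Blood markers summed to 0.634, 0.194, 67.7 and 4.88 UPM and neural crest markers to 10.5, 11.0, 9.19 and 3.99 UPM, and mitochondrial transcripts took 1.40% to 2.21% of UMIs. The E9.5 libraries shared 55 cell barcodes and the other pairs 2 to 10. Ctrl E9.5 was the library with the highest level of 19 of 24 G2/M genes, 13 of 17 S genes and 4 of 4 G1 genes. The share of all genes highest in it was not counted. Median log2 ratios over all genes tested were 0.38 for E9.5 against E8.5 in Ctrl and -0.26 for cKO against Ctrl at E9.5.

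The promoters of the G2/M and the S genes held different motifs, counted here without use of the expression data. RefSeq windows from 250 bases before to 50 bases after the transcription start (GRCm38.p6) were matched for 37 of the 45 genes by symbol. The cell cycle homology region, spelled TTTGAA and searched on both strands, was in 17 of 22 G2/M windows (77.3%) and 1 of 15 S windows, against 17.9% of all 32851 windows. The CCAAT box, spelled CCAAT, was in 86.4% of G2/M windows and 66.7% of S windows against 37.4% of all. An E2F site, spelled TTT, then 2 letters that are each C or G, then CGC, was in 6 of 15 S windows (40.0%) and 1 of 22 G2/M windows, that of Cdk1, against 2.26% of all. A match is a run of letters and not a shown binding site. Aurkb, Tpx2, Ccna2, Mcm4, Gins2, Ccne2, Ccnd1 and Ccnd2 were not matched.

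Shown first are promoters of G2/M genes that are taken up below, from 160 bases before to 50 bases after the start, written 5′ to 3′ along the gene, with CCAAT boxes, TTTGAA elements and E2F sites in capitals on either strand.
Ccnb2 (chr9:70421505-70421714, minus strand): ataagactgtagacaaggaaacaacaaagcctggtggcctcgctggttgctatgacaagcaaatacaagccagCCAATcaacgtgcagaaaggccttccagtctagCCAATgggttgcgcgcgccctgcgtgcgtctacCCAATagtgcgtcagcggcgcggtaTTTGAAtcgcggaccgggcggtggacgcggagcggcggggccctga
Cdk1 (chr10:69352863-69353072, minus strand): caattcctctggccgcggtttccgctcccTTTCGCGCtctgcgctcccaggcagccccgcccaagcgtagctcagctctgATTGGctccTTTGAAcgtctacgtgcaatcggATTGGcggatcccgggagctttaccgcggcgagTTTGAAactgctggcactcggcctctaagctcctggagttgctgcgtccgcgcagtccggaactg
Cdc20 (chr4:118437294-118437503, minus strand): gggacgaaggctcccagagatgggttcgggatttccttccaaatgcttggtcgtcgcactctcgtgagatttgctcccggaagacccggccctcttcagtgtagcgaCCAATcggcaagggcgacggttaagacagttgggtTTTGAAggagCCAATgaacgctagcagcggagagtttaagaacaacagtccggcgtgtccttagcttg
Plk1 (chr7:122159275-122159484, plus strand): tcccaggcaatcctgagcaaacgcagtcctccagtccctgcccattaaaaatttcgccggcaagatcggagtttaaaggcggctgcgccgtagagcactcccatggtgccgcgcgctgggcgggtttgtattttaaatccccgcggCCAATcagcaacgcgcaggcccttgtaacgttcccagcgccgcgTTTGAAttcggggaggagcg
Ube2c (chr2:164769769-164769978, plus strand): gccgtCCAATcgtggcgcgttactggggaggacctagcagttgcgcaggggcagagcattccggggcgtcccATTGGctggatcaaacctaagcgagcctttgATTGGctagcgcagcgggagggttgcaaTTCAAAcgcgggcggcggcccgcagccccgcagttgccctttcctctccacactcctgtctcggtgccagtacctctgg

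Shown next are promoters of S genes in the same form. Mcm3, Mcm5 and Mcm6 hold E2F sites, and Pcna holds a CCAAT box and no E2F or TTTGAA letters in this stretch. The windows of Mcm2, Rrm1, Rrm2, Ccne1 and Ung, genes that are taken up below with the MCM genes, held no E2F letters either.
Mcm3 (chr1:20820263-20820472, minus strand): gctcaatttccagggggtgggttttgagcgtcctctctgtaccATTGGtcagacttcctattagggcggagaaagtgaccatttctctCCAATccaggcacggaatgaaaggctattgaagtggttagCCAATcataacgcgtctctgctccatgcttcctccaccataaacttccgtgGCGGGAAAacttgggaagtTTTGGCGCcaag
Mcm5 (chr8:75109349-75109558, plus strand): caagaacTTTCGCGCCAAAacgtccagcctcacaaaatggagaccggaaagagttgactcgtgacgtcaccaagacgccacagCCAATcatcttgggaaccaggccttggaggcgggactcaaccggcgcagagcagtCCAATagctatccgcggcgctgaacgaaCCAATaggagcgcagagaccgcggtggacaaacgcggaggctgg
Mcm6 (chr1:128359656-128359865, minus strand): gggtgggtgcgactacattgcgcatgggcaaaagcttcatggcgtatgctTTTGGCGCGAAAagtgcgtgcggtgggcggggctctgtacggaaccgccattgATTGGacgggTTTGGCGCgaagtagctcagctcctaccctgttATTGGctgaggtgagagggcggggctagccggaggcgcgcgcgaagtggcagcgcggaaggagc
Pcna (chr2:132253131-132253340, minus strand): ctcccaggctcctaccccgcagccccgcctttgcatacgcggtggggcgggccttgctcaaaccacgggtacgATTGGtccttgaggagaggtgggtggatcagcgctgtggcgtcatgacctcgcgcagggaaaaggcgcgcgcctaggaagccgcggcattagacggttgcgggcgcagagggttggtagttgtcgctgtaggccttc

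The comparison of genotypes at E9.5 asks whether the cycle genes differ after loss of the second Tbx1 copy in the Tbx1 lineage. The replication genes were lower in cKO E9.5 than in Ctrl E9.5, and the mitotic genes were split. The 17 S genes together stood at 2511 UPM (95% counting interval 2501 to 2521) in Ctrl E9.5 and at 1750.5 UPM (1742 to 1758) in cKO E9.5, which gave -0.52 (-0.53 to -0.51) as the log2 ratio. The 24 G2/M genes together stood at 3436 UPM (3425 to 3448) in Ctrl and 2984 UPM (2973 to 2994) in cKO, and their log2 ratio was -0.20 (-0.21 to -0.20). Of the 45 genes, 21 were at least 1.5-fold lower in cKO, 11 of 17 S genes, 7 of 24 G2/M genes and 3 of 4 G1 genes, where 22.7% of all 13825 genes tested were lower by as much. None of the 45 was at least 1.5-fold higher, where 5.86% of all genes were. The median log2 ratio was -0.69 for the S genes, -0.38 for the G2/M genes and -0.59 for the G1 genes, against -0.26 over all genes tested.

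The 3 lowest ratios of the S list belonged to MCM genes, which encode the subunits of the replicative helicase. Mcm2 was at 70.1, 68.2, 124 and 63.8 UPM in the order Ctrl E8.5, cKO E8.5, Ctrl E9.5 and cKO E9.5, so Ctrl E9.5 was the high library and the other 3 lay close together (log2 ratio cKO/Ctrl at E9.5 -0.96, -1.003 to -0.915). Mcm6 had the same shape, with 89.9, 90.9, 156 and 86.6 UPM in the same order of libraries (-0.85, -0.89 to -0.81). Mcm7, with 148, 145, 194 and 108 UPM, was lowest in cKO E9.5 (-0.84, -0.88 to -0.81). Mcm3, Mcm4 and Mcm5 were also past 1.5-fold, at log2 ratios of -0.73, -0.69 and -0.75. Summed, the 6 MCM genes went from 878 UPM in Ctrl E9.5 to 503 UPM in cKO E9.5, a 1.74-fold lower level. At E8.5 the same sum was 584 UPM in Ctrl and 575 UPM in cKO.

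The other S genes past 1.5-fold act in licensing, nucleotide supply, entry into S phase and repair. Cdc6, which loads the helicase, was at 23.8, 24.7, 40.9 and 23.2 UPM in the order Ctrl E8.5, cKO E8.5, Ctrl E9.5 and cKO E9.5 (log2 ratio at E9.5 -0.82, -0.89 to -0.75). The ribonucleotide reductase subunits, which make deoxynucleotides, were lower by similar amounts, Rrm1 at 108 against 62.1 UPM (-0.80) and Rrm2 at 433 against 266 UPM (-0.70). Ccne1, the cyclin E that starts S phase, was at 81.4 against 50.3 UPM (-0.69), and Ung, a uracil DNA glycosylase of repair, at 86.8 against 57.2 UPM (-0.60). Below 1.5-fold were Cdt1 (-0.43), Tyms (-0.39), Ccne2 (-0.37) and Slbp, the histone messenger RNA binding protein (-0.23).

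Replication genes outside that pattern were Pcna and Gins2. Pcna, the sliding clamp of the replication fork, was at 144, 154, 138 and 147 UPM in the same order, the lowest value being that of Ctrl E9.5 (log2 ratio at E9.5 0.10, 0.06 to 0.13). Gins2, a subunit of the active helicase, was at 147, 149, 156 and 165 UPM (0.07, 0.04 to 0.11). Neither was past 1.5-fold. Pcna and Tyms have near-identical pseudogene copies, so their counts are uncertain.

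Of the 24 G2/M genes, 7 were at least 1.5-fold lower in cKO E9.5, where 22.7% of all genes tested were. Plk1, a mitotic kinase, was at 67.2, 51.8, 102 and 56.5 UPM in the order Ctrl E8.5, cKO E8.5, Ctrl E9.5 and cKO E9.5 (log2 ratio at E9.5 -0.85, -0.90 to -0.81). Ccna2, cyclin A2, was at 91.5, 107, 153 and 88.8 UPM (-0.78, -0.82 to -0.74). Cdc20, which activates the anaphase-promoting complex, was at 158, 134, 236 and 147 UPM (-0.68, -0.71 to -0.65). These 3 had the lowest ratios of their list, and in each the 2 E9.5 libraries lay farther apart than those of E8.5. Ccnb1, cyclin B1, was at 164, 133, 210 and 133 UPM (-0.66, -0.69 to -0.62), and its partner kinase gene Cdk1 at 173, 153, 243 and 155 UPM (-0.65, -0.67 to -0.62). Ccnb2 (-0.62) and the kinesin gene Kif20b (-0.60) completed the 7 past 1.5-fold.

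The highest ratios of the G2/M list belonged to Ube2c, Birc5 and Cenpa. Ube2c, the ubiquitin-conjugating enzyme that works with Cdc20, was at 379, 318, 334 and 390 UPM, higher in cKO than in Ctrl at E9.5 (log2 ratio 0.22, 0.20 to 0.24). Birc5, which encodes survivin of the chromosomal passenger complex, was at 364, 348, 376 and 431 UPM (0.20, 0.18 to 0.22). Cenpa, the centromeric histone H3 variant, was at 267, 289, 323 and 350 UPM (0.12, 0.09 to 0.14). None of the 3 reached 1.5-fold, and other genes of the centromere and of late mitosis lay below 0, with Cenpe and Bub1b at -0.46 and Bub1 and Aurkb at -0.38. The proliferation marker Mki67 was at 44.5, 55.6, 62.1 and 64.8 UPM (0.06, 0.01 to 0.11), and Top2a, the topoisomerase that untangles sister chromatids, at 195, 256, 236 and 223 UPM (-0.08, -0.11 to -0.06). The 12 G2/M genes between these ran from -0.48 (Aurka) to -0.01 (Prc1). In all, 20 of 24 G2/M genes had a ratio below 0, where the median of all genes tested was itself -0.26. Below that median lay 13 of the 24, and the share of all genes below 0 was not counted.

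All 4 G1 genes were lower in cKO E9.5. Ccnd2, cyclin D2, was at 325, 321, 446 and 298 UPM in the order Ctrl E8.5, cKO E8.5, Ctrl E9.5 and cKO E9.5 (log2 ratio at E9.5 -0.59, -0.61 to -0.56), and Ccnd1, cyclin D1, at 79.8, 90.7, 117 and 78.0 UPM (-0.59, -0.63 to -0.55). The inhibitor genes were scarce. Cdkn1a was at 4.16, 1.67, 7.30 and 4.63 UPM, from 105, 43, 688 and 484 UMIs (-0.66, -0.83 to -0.49), and Cdkn1b at 6.46, 6.57, 11.0 and 8.67 UPM (-0.35, -0.48 to -0.22). Over all cells the inhibitors and the D cyclins thus lay on the same side of 0, as did the median of all genes at -0.26. In the 8 groups of cells described below, Cdkn1a was below 0 in 4, with its interval below 0 in 2 and above 0 in 2. The interval of Cdkn1b lay below 0 in 2 of the 8 groups.

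**Figure D1:**
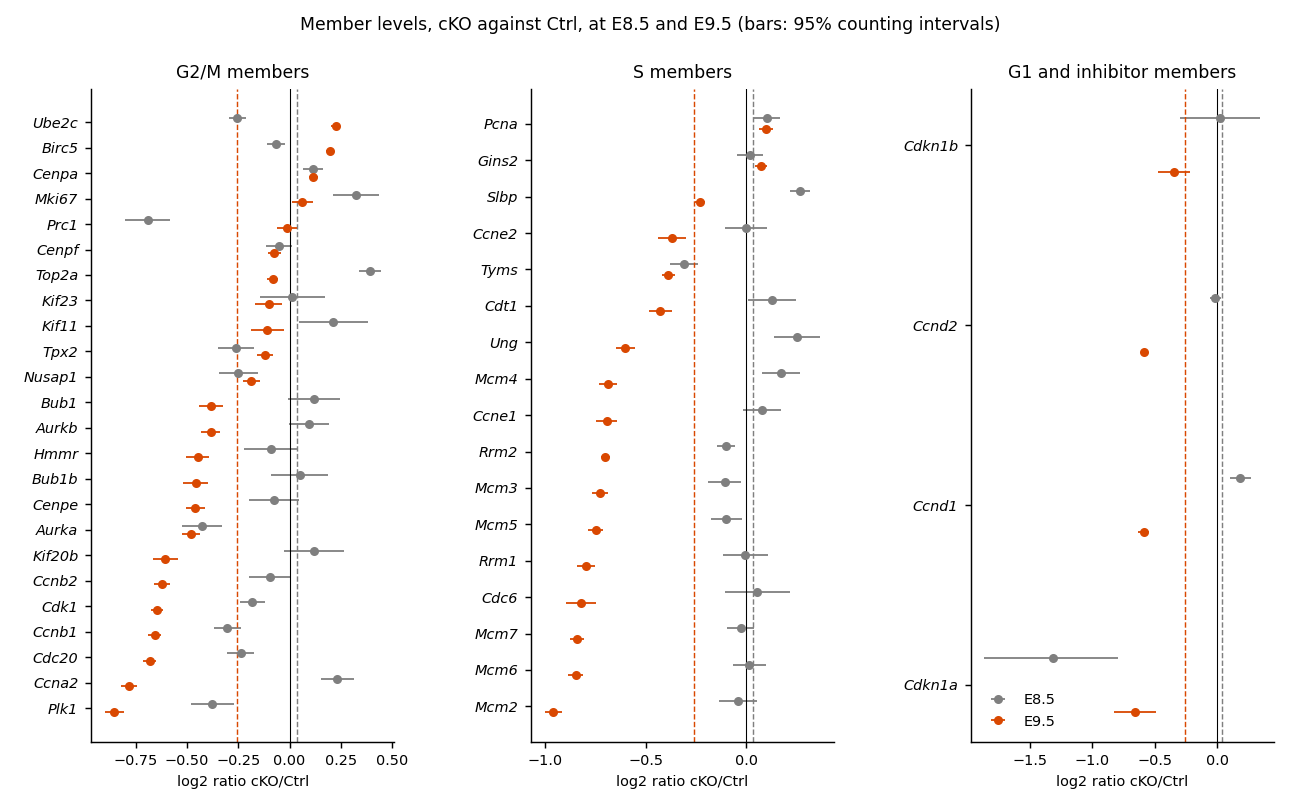
Log2 ratio of cKO to Ctrl for each of the 45 genes (rows) at E8.5 (grey) and E9.5 (orange), as points with 95% counting intervals; the solid line is 0 and dashed lines are the medians of all genes, 0.04 at E8.5 and -0.26 at E9.5. At E9.5 the genes run from Ube2c at 0.22 to Mcm2 at -0.96, and at E8.5 most lie near 0, with Prc1 at -0.69 and Cdkn1a at -1.32.

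The size of the E9.5 difference depended on the scaling, since the median of all genes itself lay at -0.26. With TMM scaling, which centres the bulk of genes, 0.26 was added to every log2 ratio, the S sum became -0.26, the G2/M sum turned to 0.055, and 3 of the 45 genes (Plk1, Mcm2 and Mcm6) were past 1.5-fold lower where 11.3% of all genes were, with 10.7% higher. On that scale 14 of 17 S genes and 4 of 4 G1 genes remained below 0, and the G2/M genes were split 13 below and 11 above. All-gene medians at E9.5 also moved with transcript length, from -0.01 below 800 bases to -0.37 between 2500 and 4000 bases. With the median of its length class taken off, an alternative added after the data were seen, 3 genes stayed past 1.5-fold lower (Mcm2, Mcm7 and Cdc6) where 11.0% of all genes were. The libraries also differed in blood markers (67.7 UPM in Ctrl, 4.88 UPM in cKO, all 5 markers found in both, with 5 and 37 cells holding at least 2), in neural crest markers (9.19 against 3.99 UPM) and in the gene table used for counting, and the part of these in the result was not tested.

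At E8.5 the cycle genes lay near the control level. The S genes summed to 1874 UPM (1857 to 1891) in Ctrl and 1896 UPM (1879 to 1913) in cKO, with 0.02 (-0.0014 to 0.04) as their log2 ratio. The G2/M genes summed to 2741 UPM (2720 to 2761) in Ctrl and 2608 UPM (2588 to 2628) in cKO, with -0.07 (-0.09 to -0.06). None of the 45 was at least 1.5-fold higher in cKO, where 6.81% of all 11393 genes tested were. Prc1 and Cdkn1a were at least 1.5-fold lower, where 3.03% of all genes were. Medians were -0.07 for G2/M genes and 0.02 for S genes against 0.04 over all genes.

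Prc1, which bundles the microtubules of the central spindle, was at 70.7, 43.8, 70.9 and 70.4 UPM in the order used above, so cKO E8.5 alone was low (log2 ratio at E8.5 -0.69, -0.80 to -0.58). Aurka, a spindle pole kinase, was next in the G2/M list at -0.43 (-0.52 to -0.33), then Plk1 at -0.38. The highest of that list were Top2a at 0.39 (0.34 to 0.44), Mki67 at 0.32 (0.21 to 0.44) and Ccna2 at 0.23 (0.15 to 0.31). Within the S list the range was narrow, from Tyms at -0.31, Mcm3 at -0.11 and Rrm2 at -0.10 to Mcm4 at 0.17, Ung at 0.25 and Slbp at 0.27. Pcna was at 0.10, Mcm5 at -0.10, Cdk1 at -0.18 and Ccnb1 at -0.30. Of the G1 genes Ccnd1 was at 0.19, Cdkn1b at 0.02, Ccnd2 at -0.02 and Cdkn1a at -1.32 (-1.86 to -0.79), the last from 105 and 43 UMIs.

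Between stages the control and the cKO libraries gave different values, and the control comparison shares Ctrl E9.5 with the genotype comparison above. In Ctrl, 16 of the 45 genes were at least 1.5-fold higher at E9.5 than at E8.5 (8 G2/M, 6 S and 2 G1 genes), where 34.7% of all 13103 genes tested were, and none was lower by as much, where 5.39% of all genes were. The G2/M sum differed by 0.33 (0.31 to 0.34) on the log2 scale and the S sum by 0.42 (0.41 to 0.44), with an all-gene median of 0.38. With TMM scaling the sums were 0.0041 and 0.10, 5 of the 45 genes were higher and 1 (Ccne2) was lower, and 18.4% of all genes were higher and 11.997% lower. In cKO, 3 genes were at least 1.5-fold higher at E9.5 (Prc1, Cenpe and Cdkn1a), where 18.0% of all 13020 genes were, and 2 were lower (Ccne1 and Ccne2), where 11.5% were. The cKO sums differed by 0.19 (0.18 to 0.21) for G2/M and -0.12 (-0.13 to -0.10) for S, with an all-gene median of 0.05.

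In Ctrl the highest stage ratios of the G2/M list belonged to Ccnb2 at 1.05, Cenpe, the kinetochore kinesin, at 1.002, and Kif20b at 0.95, and the lowest to Ube2c at -0.18, Prc1 at 0.01 and Birc5 at 0.05. In the S list the highest were Rrm1 at 1.03, Ung at 0.97 and Mcm2 at 0.82, and the lowest Ccne2 at -0.55, Pcna at -0.06 and Gins2 at 0.09. The G1 genes were at 0.81 (Cdkn1a), 0.77 (Cdkn1b), 0.56 (Ccnd1) and 0.46 (Ccnd2). Ccne2, a second cyclin E, had the lowest stage ratio of the S list in both genotypes, at 58.9 and 40.1 UPM in Ctrl and 58.8 and 31.1 UPM in cKO. Mki67 was at 0.48, Cdk1 at 0.49, Ccnb1 at 0.35, Top2a at 0.28 and Mcm5 at 0.52.

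Cells were also put into groups by marker genes, none of them among the 45. Each cell was thinned to 5000 UMIs and passed through 11 gates in a set order, and groups with at least 50 cells were described. Markers that the gates did not use marked the endothelial, cardiomyocyte and epithelial groups strongly, for instance Flt1 (35.7-fold over other cells), Tnni3 (139-fold) and Grhl2 (22.7-fold) in Ctrl E9.5. In the other groups such markers were split. They were higher for Hand2 in the anterior heart field group (12.9-fold), Tlx1 and Tbx1 in the branchiomeric group (5.75-fold and 2.36-fold), Rdh10 and Vamp8 in the Arg1 group (5.80-fold and 2.50-fold), Col3a1 in the mesenchyme group (2.75-fold) and Foxc2 in the somitic group (2.26-fold) of Ctrl E9.5, and Meox2 in the somitic group of Ctrl E8.5 (12.3-fold). In Ctrl E9.5 the somitic group had 0.141-fold the Pax1 and 0.911-fold the Meox2 of other cells, the branchiomeric group 0.982-fold the Ebf3 (0.392-fold in cKO E9.5), and the anterior heart field group 0.907-fold the Fgf8 with Tdgf1 at 0 UMIs, and at E8.5 the mesenchyme group of Ctrl had 0.858-fold the Col1a1. The Arg1 group at E8.5 had 1.53-fold the Rdh10 of other cells in Ctrl and 1.09-fold in cKO. For Vamp8 these values were 1.48-fold and 1.51-fold. No gate was passed by 42.3% of cells in Ctrl E9.5, 46.7% in cKO E9.5, 49.0% in cKO E8.5 and 59.96% in Ctrl E8.5 (ungated).

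Cardiomyocyte-gated cells, chosen by sarcomere genes, had the lowest cycle gene levels at E9.5. Their G2/M sum was 2227 UPM in Ctrl and 2147 UPM in cKO, and their S sum 1531 UPM and 1161 UPM. In Ctrl E9.5 the other groups ran from 2808 UPM (somitic) through 3080 (anterior heart field), 3084 (endothelial), 3113 (Arg1), 3330 (branchiomeric) and 3453 UPM (epithelial) to 3761 UPM (mesenchyme) for G2/M. Against all other cells of Ctrl E9.5 the cardiomyocyte-gated cells were at -0.64 on the log2 scale for G2/M (-0.68 to -0.59). Among the gated groups described they had the lowest level of 34 of the 45 genes in Ctrl E9.5 and of 29 in cKO E9.5, where 22.3% and 25.8% of all genes with at least as many UMIs as the scarcest of the 45 were lowest in them, and endothelial cells came next with 6 and 9 genes. Counts came from 125 and 65 cells. The counting intervals of anterior heart field, endothelial and Arg1-gated cells overlapped, and those of the other neighbours in this order did not.

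The order of the S sums was another one. Somitic-gated cells of Ctrl E9.5 were highest at 2880 UPM, followed by branchiomeric cells at 2819 UPM, Arg1-gated cells at 2558 UPM and mesenchyme at 2551 UPM, while epithelial (2245 UPM), anterior heart field (2240 UPM) and endothelial cells (2046 UPM) were lower. The somitic group held 72 cells in Ctrl E9.5. With 1 more marker or UMI needed in every gate it held 1 cell there and 0 in cKO E9.5, so its values rest on the looser gate. Arg1 is a marker of the multilineage progenitors of the cardiopharyngeal mesoderm. Mesenchyme had the highest level of 16 of the 45 genes, all but Rrm1 from the G2/M list, where 9.501% of all genes were highest in it. Somitic cells had the highest level of 10, and the share of all genes highest in them was not counted. At E8.5 the described groups (Arg1, somitic, mesenchyme and ungated) were close to one another, between 2599 and 2776 UPM for G2/M in Ctrl.

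**Figure D2:**
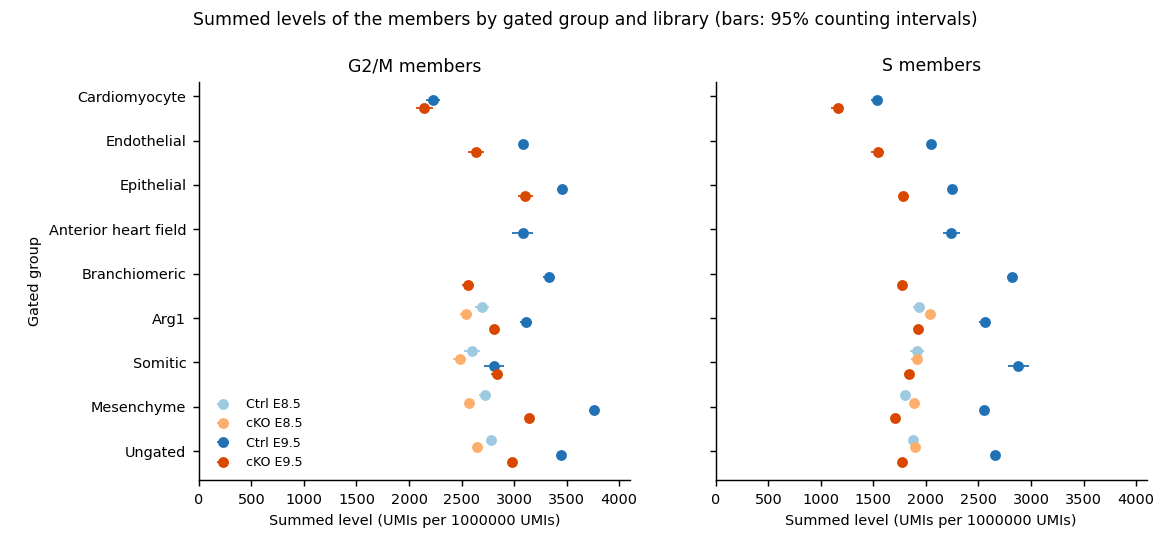
Summed levels of the 24 G2/M genes and the 17 S genes (x axis, UMIs per 1000000 UMIs) in each gated group (y axis), by library, with 95% counting intervals; groups under 50 cells are not drawn. Cardiomyocyte-gated cells lie lowest at E9.5, at 2227 UPM of G2/M genes in Ctrl, and in the S panel every cKO E9.5 point lies left of its Ctrl E9.5 point.

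The lower S level in cKO E9.5 was present in each of the 8 groups described in both E9.5 libraries. Group sizes differed between them. Arg1-gated cells were 4.37% of Ctrl and 8.84% of cKO cells, and somitic cells 1.33% and 3.04%. Epithelial cells were 9.92% and 2.05%, and endothelial cells 7.21% and 1.64%. Whether a gate held the same kinds of cells in both genotypes was not tested. The S sum had log2 ratios of -0.33 in epithelial, -0.40 in cardiomyocyte, -0.41 in endothelial and Arg1, -0.58 in mesenchyme, -0.59 in ungated, -0.65 in somitic and -0.67 in branchiomeric cells, where the medians of all genes in the groups lay between -0.26 and -0.19. The sum of the 6 MCM genes ran from -0.48 (-0.57 to -0.39) in epithelial to -1.10 (-1.21 to -0.99) in somitic cells. The G2/M sum ran from -0.38 (-0.42 to -0.34) in branchiomeric to 0.02 (-0.04 to 0.07) in somitic cells. Relative to the median of all genes in the same group, the G2/M sum was below it in the endothelial, branchiomeric and mesenchyme groups and above it in the other 5 groups. With gates set on unthinned cells the G2/M ratio was -0.23 in branchiomeric cells, and with other gate rules it was between -0.22 and -0.057 in Arg1-gated cells, where it had been -0.15. With the cells of both libraries weighted to the makeup of Ctrl E9.5, the sums over all cells were -0.54 for S and -0.22 for G2/M.

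Gene by gene, 14 of 17 S genes, 9 of 24 G2/M genes and Ccnd2 had a ratio below 0 in 8 of 8 groups, where 33.4% of all genes did. All genes here are those with at least as many UMIs over the libraries in question as the scarcest of the 45, and the G2/M share was near theirs. The counting interval lay below 0 in all 8 groups for Mcm2, Mcm3, Mcm5, Mcm6, Mcm7, Rrm2 and Ung, for Ccnb1, Ccnb2, Ccna2 and Cdc20, and for Ccnd2, which makes 12 of the 45 where 6.403% of all genes had this. The S genes that were not below 0 in every group were Pcna, Gins2 and Ccne2. Birc5 was above 0 in 8 of 8 groups, from 0.02 in branchiomeric to 0.50 in cardiomyocyte cells, and with its interval above 0 in 6, and 8.999% of all genes were above 0 in 8 of 8. Ccnd2 ran from -0.33 in somitic cells to -1.20 (-1.28 to -1.13) in Arg1-gated cells, in which its level was 682 UPM in Ctrl and 296 UPM in cKO, and Ccnd1 from 0.09 in cardiomyocyte-gated to -0.88 in Arg1-gated cells.

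**Figure D3:**
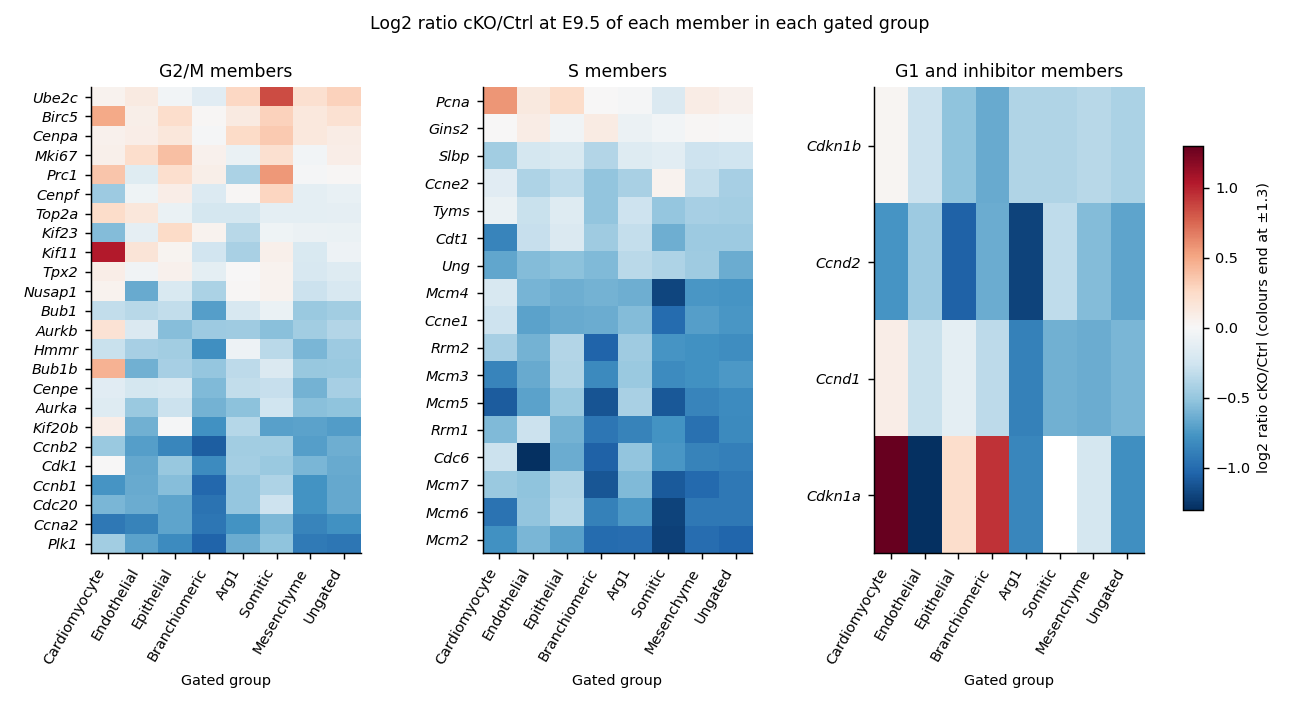
Log2 ratio of cKO to Ctrl at E9.5 for each of the 45 genes (rows, by list) in each gated group (columns), from blue (lower in cKO) to red (higher), with colours ending at 1.3 either way; the Cdkn1a cell of the somitic group is blank because Ctrl had 0 UMIs there. MCM genes are blue in every column, Birc5 is on the red side in every column, and Ccnd2 is darkest in Arg1-gated cells at -1.20.

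Single genes differed between the groups of Ctrl E9.5 in ways the sums do not show. Cdk1 was highest in endothelial cells at 352 UPM and lowest in cardiomyocyte-gated cells at 128 UPM. Ccnd2 had the widest range of the genes with UMIs in every group, from 125 UPM in endothelial cells to 755 UPM in anterior heart field cells, and cardiomyocyte-gated cells came second at 688 UPM. Ccnd1 had another order, with 132 UPM in endothelial and 68.7 UPM in cardiomyocyte-gated cells. Cdkn1a was at 24.02 UPM in epithelial cells and at 7.99 UPM or less in the other groups, and Cdkn1b varied little, from 7.10 UPM in endothelial to 12.5 UPM in cardiomyocyte-gated cells. Mki67 ran from 39.1 UPM (cardiomyocyte) to 71.6 UPM (mesenchyme), Top2a from 154 UPM (cardiomyocyte) to 261 UPM (Arg1), and Ccnb1 from 145 UPM (cardiomyocyte) to 240 UPM (mesenchyme). Mcm5 ran from 89.8 UPM (cardiomyocyte) to 202 UPM (somitic) and Pcna from 86.3 UPM (cardiomyocyte) to 166 UPM (somitic).

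In cKO E9.5 the same genes had these extremes. Cdk1 was again highest in endothelial cells, at 221 UPM, and lowest in branchiomeric cells at 119 UPM. Ccnd2 ran from 89.8 UPM in endothelial to 403 UPM in cardiomyocyte-gated cells, and Cdkn1a was at 28.2 UPM in epithelial and 19.6 UPM in cardiomyocyte-gated cells. The cardiomyocyte value of Cdkn1a was 6.02 UPM in Ctrl E9.5 (log2 ratio 1.70, 0.63 to 2.84), from 12 UMIs in Ctrl and 23 in cKO. Its ratio was also above 0 with the interval in branchiomeric cells (0.94, 0.09 to 1.80). It was below 0 with the interval in endothelial (-2.18, -4.50 to -0.57) and ungated cells (-0.80, -1.09 to -0.51), and -0.66 over all cells. Mcm5 ran from 42.5 UPM (cardiomyocyte) to 107 UPM (Arg1), Ccnb1 from 85.1 UPM (cardiomyocyte) to 141 UPM (epithelial) and Top2a from 181 UPM (cardiomyocyte) to 232 UPM (mesenchyme). Mki67 ran from 40.8 UPM (cardiomyocyte) to 82.0 UPM (epithelial), Ccnd1 from 71.4 UPM (Arg1) to 120 UPM (epithelial), Pcna from 128 UPM (cardiomyocyte) to 162 UPM (branchiomeric), and Cdkn1b from 5.87 UPM (endothelial) to 12.8 UPM (cardiomyocyte).

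At E8.5 the endothelial, cardiomyocyte, epithelial, branchiomeric and anterior heart field groups held too few cells to be described. The spreads at E8.5 and E9.5 are thus over different sets of groups. In Ctrl E8.5, over the Arg1, somitic, mesenchyme and ungated groups, Cdk1 lay between 151 and 171 UPM, Ccnb1 between 165 and 176 UPM, Pcna between 134 and 145 UPM and Mcm5 between 106 and 122 UPM. Ccnd2 was at 227 UPM in Arg1-gated and 349 UPM in ungated cells. In cKO E8.5 Ccnb1 lay between 118 and 143 UPM, and its ratio to Ctrl was below 0 with its interval in 4 of 4 groups, as were those of Plk1, Aurka, Prc1, Nusap1 and Ube2c, 6 genes where 3.22% of all genes had this. Top2a (0.40 to 0.47) and Slbp (0.22 to 0.54) were above 0 with their intervals in 4 of 4 groups, as were 3.46% of all genes. Mki67 lay between 36.1 and 47.6 UPM in Ctrl E8.5 and between 46.2 and 60.6 UPM in cKO E8.5, and Ccnd1 between 75.9 and 94.4 UPM and between 83.5 and 112 UPM. Cdkn1b was at 10.4 UPM or less and Cdkn1a at 5.54 UPM or less in every group of both libraries.

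To place cells along the cycle without the 45 genes, sums over 26 other G2/M genes and 32 other S genes were taken in each cell after thinning to 5000 UMIs. A cell with at least 13 UMIs of the first was put in a G2/M range, and one of the rest with at least 21 UMIs of the second in an S range, cuts that about the top 25% of Ctrl E9.5 cells reached. The ranges are stretches of a score and not phases, with 211 cells of Ctrl E9.5 at the G2/M cut and 238 cells 1 UMI below it. At E8.5 the G2/M range held 12.7% of Ctrl cells and 15.5% of cKO cells, and at E9.5 28.9% and 23.5%. The S range held 10.5% and 13.6% at E8.5 and 24.4% and 15.7% at E9.5. At E9.5 the cKO share was lower by 5.41 percentage points for G2/M (difference -5.41, -7.02 to -3.81) and by 8.69 for S (-8.69, -10.1 to -7.23). At E8.5 the differences were 2.75 (-0.05 to 5.63) and 3.16 (0.53 to 5.86).

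These shares depended on depth and on 1 gene. Without thinning the cKO minus Ctrl difference at E8.5 became 24.1 percentage points for G2/M and 21.9 for S (shares of 13.2% and 37.3%, and of 6.15% and 28.0%), where the median cell held 17223 UMIs in Ctrl and 23883 in cKO. At E9.5, where the depths were 16567 and 15888 UMIs, the shares without thinning were 25.3% and 19.5% for G2/M and 18.1% and 9.70% for S. Cks2, a small partner of the cyclin-dependent kinases and the most abundant of the 26 genes, was at 491, 602, 435 and 605 UPM in the order Ctrl E8.5, cKO E8.5, Ctrl E9.5 and cKO E9.5, and without it the G2/M difference was -13.5 at E9.5 and -1.97 at E8.5. Thinning left out 68, 70, 29 and 59 cells in that order. Free RNA in the droplets also enters such sums, and its part in the shares was not tested.

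**Figure D4:**
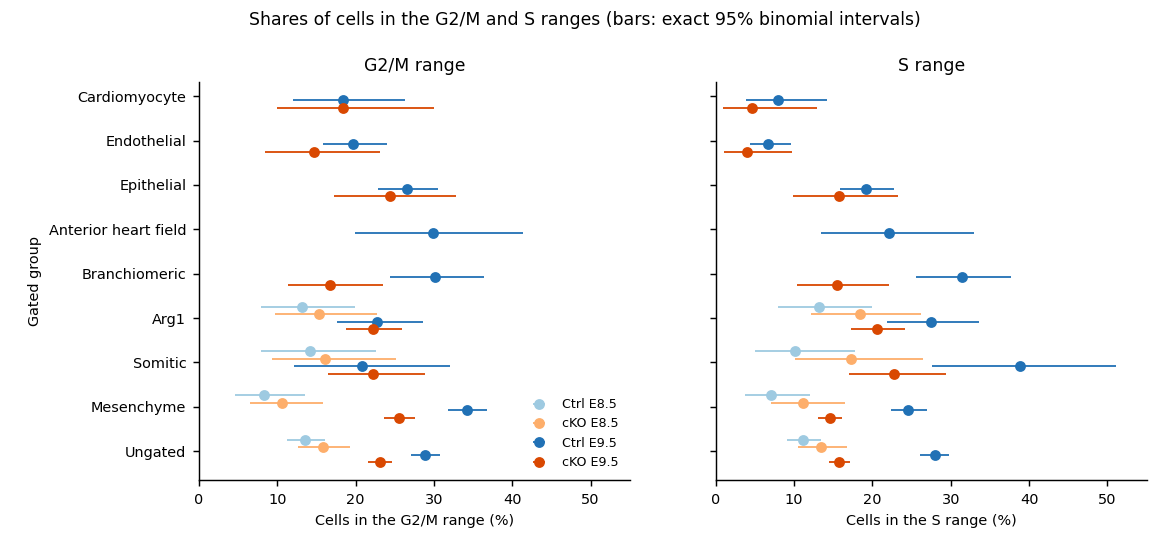
Share of cells (x axis, percent) in the G2/M range and in the S range for each gated group (y axis) and library, with exact 95% binomial intervals; groups under 50 cells are not drawn. The branchiomeric group has the widest gap between the E9.5 libraries in the G2/M panel, 30.2% in Ctrl and 16.8% in cKO, and the cardiomyocyte group the narrowest, 18.4% and 18.5%.

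By group at E9.5, branchiomeric cells had 30.2% (24.5 to 36.4, exact binomial) in the G2/M range in Ctrl and 16.8% (11.4 to 23.5) in cKO, and 31.4% and 15.5% in the S range. In mesenchyme the shares were 34.3% and 25.6% for G2/M and 24.6% and 14.5% for S. In Arg1-gated cells they were 22.8% and 22.2% for G2/M and 27.4% (21.8 to 33.6) and 20.6% (17.3 to 24.2) for S. The intervals of the genotypes overlapped in both ranges. Endothelial and cardiomyocyte-gated cells had the smallest S shares, 6.65% and 8% in Ctrl and 3.92% and 4.62% in cKO, with intervals that overlapped between genotypes. Somitic-gated cells had the highest S share of Ctrl E9.5, 38.9% (27.6 to 51.1), against 22.8% (16.98 to 29.4) in cKO, and these intervals overlapped. At E8.5 the intervals of all 4 described groups overlapped between the genotypes. Intervals for the differences were not taken by group, and overlap of separate intervals does not show that shares were equal.

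The 45 genes followed the ranges, which none of them had set, though genes of the same cells and depth share their libraries. In Ctrl E9.5 all 24 G2/M genes were higher in the G2/M range than in cells of neither range with the counting interval above 0, and all 17 S genes were higher in the S range, where 28.5% and 17.1% of all genes were. Nusap1, which binds spindle microtubules, was at 194 UPM in the G2/M range, 30.6 UPM in the S range and 54.3 UPM in neither, a log2 ratio of 1.83 (1.76 to 1.90). Prc1 at 1.67 and Ube2c at 1.63 came next, and Ccnb1 had 1.43. Ccnb2 was the flattest of the list at 0.32 (0.26 to 0.37), with 160, 115 and 129 UPM. In both E8.5 libraries the interval of Ccnb2 reached 0, and the other 23 G2/M genes were above it, as were 6.11% of all genes in Ctrl and 7.16% in cKO.

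The S genes were separated mainly by how far they dropped in the G2/M range. Ung was at 152 UPM in the S range, 97.1 UPM in neither and 21.96 UPM in the G2/M range (-2.14 against neither, -2.27 to -2.02). Ccne2 (-1.53) and Cdc6 (-1.14) were next lowest there, and they were also among the highest in the S range, at 0.74 and 0.81. Rrm2 (0.72 in the S range), Mcm7 and the other MCM genes were lower by less in the G2/M range, and Rrm1 (0.06, -0.01 to 0.13) and Tyms (0.02, -0.03 to 0.07) were flat there. In cKO E9.5 the order was close to this, with Ung at -2.52, Ccne2 at -1.65 and Cdc6 at -1.20. Cdkn1a was highest outside both ranges in Ctrl E9.5 (-1.04 in the G2/M range and -0.54 in the S range), and in cKO E9.5 it was at -0.48 and 0.03. In Ctrl E9.5 Cdkn1b was at 0.50 in the G2/M range and -0.28 in the S range, Ccnd1 at -0.13 and 0.12, and Ccnd2 at -0.06 and 0.15.

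**Figure D5:**
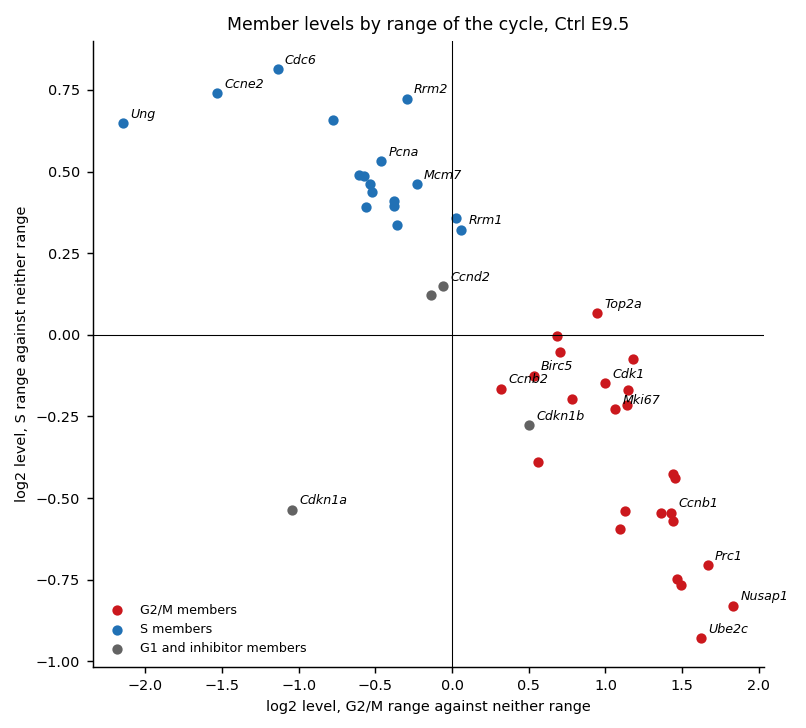
Each of the 45 genes in Ctrl E9.5, by its log2 level in the G2/M range against cells of neither range (x axis) and in the S range against neither (y axis), coloured by list. The 24 G2/M genes lie right of 0, the 17 S genes above 0, with Ung farthest left at -2.14 and Nusap1 farthest right at 1.83, and Cdkn1a is below 0 on both axes.

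The genotype difference in the replication genes was present inside each range at E9.5. The sum of the 6 MCM genes had log2 ratios of cKO to Ctrl of -0.91 (-0.95 to -0.88) in the G2/M range, -0.80 (-0.83 to -0.77) in the S range and -0.74 (-0.76 to -0.72) in neither, and the S sum of -0.61, -0.50 and -0.46. Ccnb1 was at -0.60, -0.59 and -0.56, and Cdk1 at -0.63, -0.56 and -0.56. The G2/M sum was at -0.16, -0.17 and -0.13. Medians of all genes were not taken by range, and over all cells the median of all genes was -0.26. Ube2c stood above 0 in all 3 sets of cells, at 0.30, 0.28 and 0.31. Pcna was at -0.11 (-0.19 to -0.03) in the G2/M range and 0.13 (0.06 to 0.19) in the S range. At E8.5 the MCM sum was at -0.02, -0.04 and -0.02.

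Other genes of the pathway were followed on lists that hold none of the 45. Among 26 further G2/M genes at E9.5, 8 were at least 1.5-fold lower in cKO and none higher, where 22.7% of all genes were lower and 5.86% higher, and their median log2 ratio was -0.40. Their lowest were Ndc80 (-0.90) and Kif22 (-0.82), and their highest Cks2 (0.48) and Psrc1 (0.08). Among 32 further S genes 6 were lower and 1 was higher, a share of lower genes below that of all genes, with a median of -0.30. Cdc45, a subunit of the active helicase, was among the lowest at -0.83, and the highest were Dut (0.28) and Atad2 (0.99). The same lists had medians of -0.05 and 0.03 at E8.5, with no gene past 1.5-fold, where 3.03% of all genes were lower and 6.81% higher.

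Of 33 cycle regulators, 32 were tested at E9.5, of which 2 were at least 1.5-fold lower and 5 higher. Among all genes tested 22.7% were lower and 5.86% higher by as much. The median of the regulators was -0.19, against -0.26 over all genes. Mycn, a growth-promoting transcription factor gene, was at 99.1 UPM in Ctrl and 52.9 UPM in cKO (-0.91), and Cdc25b at 10.2 and 6.34 UPM (-0.68). Tfdp1, the partner of the E2F factors, had 184 UMIs in the E9.5 library of Ctrl and 10296 in that of cKO (5.66), and 39 and 53 UMIs at E8.5, so the library counted on the larger gene table was the high one and the gene table and genotype cannot be told apart for it. Cdkn2b was at 1.13 from 49 and 119 UMIs. Of 14 p53 targets 5 were lower and none higher, beside the same 22.7% and 5.86% of all genes. Their median was -0.39, with Perp (-2.34) and Eda2r (-1.05) lowest and Gadd45a (0.25) and Bax (0.14) highest. Of 9 dissociation-response genes tested, of 10 listed, 7 were lower in cKO (median -0.73), where 22.7% of all genes were. The 9 ran from Fosb at -4.50, on 61 and 3 UMIs, and Fos at -1.93 to Ier2 at -0.32 and Jun at -0.17. The part of cell handling in the cycle gene levels was not tested.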

How the data were processed

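The values the authors deposited are whole UMI counts, by gene and cell barcode, for 4 libraries, 1 per group, made with the 10x 3′ v2 kit and Cell Ranger (version 3.1.0 and mm10/GRCm38 per the submitters' processing notes, 3.0.2 per the file headers of both E8.5 libraries). The counts carry no scaling and no cell labels. The cKO E9.5 library was counted on a table of 31053 genes and the others on 27998. The tables shared 27514 Ensembl identifiers, which were used throughout and held 99.4% to 99.9% of UMIs. The 3′ counts are of molecules, and levels were compared between cells and libraries, not between genes.

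Every deposited barcode was kept for library sums. Counts were summed over cells and divided by the UMIs of shared genes. Intervals are exact Poisson for levels, exact conditional binomial for log2 ratios, exact binomial (Clopper-Pearson) for shares and Newcombe for differences of shares, all at 95% and for counting error only. Since 1 library per group allows no test, a gene was counted as higher or lower when it was at least 1.5-fold apart with at least 50 UMIs over both libraries, and the share of all genes past that fold is given beside it. The scripts were tested on artificial counts with known changes.

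For gates and ranges, cells with at least 5000 UMIs were thinned to 5000 (seed 1), which left 1366, 1020, 5424 and 6207 cells in the order Ctrl E8.5, cKO E8.5, Ctrl E9.5 and cKO E9.5. The gates were, in order, endothelial (4 of Kdr, Cdh5, Pecam1, Tie1, Tek, Emcn, Cldn5, Esam, Egfl7 and Plvap), cardiomyocyte (4 of Tnnt2, Myl7, Myl4, Myh6, Myh7, Actn2, Ttn and Nppa), epithelial (3 of Epcam, Cdh1, Cldn6, Cldn7, Cldn4 and Esrp1), neuronal, myogenic, Arg1 (2 UMIs), branchiomeric (2 of a marker list that includes Tcf21, Msc and Lhx2), anterior heart field (3 of Isl1, Fgf10, Nkx2-5, Mef2c and Sema3c), posterior heart field, somitic (2 of Tcf15, Meox1 and Uncx) and mesenchyme (3 of Prrx1, Prrx2, Twist1, Twist2, Foxd1, Foxf2, Foxl1 and Postn). The neuronal, myogenic and posterior heart field groups held under 50 cells in every library. No doublet caller was run. The 2 cells of Ctrl E9.5 that passed more than 1 of the first 4 gates were set aside, and the 3, 9, 182 and 59 cells above both range cuts were put in the G2/M range.

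All 45 genes are accounted for, and those named are the 3 highest and 3 lowest ratios of each list in each comparison plus Mki67, Top2a, Cdk1, Ccnb1, Pcna, Mcm5, Ccnd1, Ccnd2, Cdkn1a and Cdkn1b. Further genes were named after their values were seen, as were the genes that completed a count. From the other lists the 2 highest and 2 lowest are named, except for an item that is not reported here. The genes, lists and gates were chosen with earlier results of these data known. Promoters came from RefSeq windows on GRCm38.p6. Alternatives were TMM and median of ratios scaling, other UMI minimums, other cuts, depths and gates, and weighting by cell or by group makeup. Analyses used Python 3.11.15, numpy 2.4.6, scipy 1.17.1, pandas 2.3.3, R 4.3.3 and edgeR 4.0.16, the last for TMM factors only.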

Additional observations from a re-analysis of the deposited data

Results flagged for a closer look

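For 19 of the 45 genes the ratio of cKO to Ctrl had opposite signs at E8.5 and E9.5, and for 10 of these, given here, the counting interval lay off 0 at both stages. The share of all genes with opposite signs was not counted, so neither count can be set against it. With 1 library per group the difference between stages was not tested. Each value is the log2 ratio of cKO to Ctrl, and the difference is E9.5 minus E8.5. Genes above 0 at E8.5 and below it at E9.5 were Ccna2 (0.23 and -0.78, difference -1.01), Mcm4 (0.17 and -0.69, -0.86), Ung (0.25 and -0.60, -0.85), Ccnd1 (0.19 and -0.59, -0.78), Cdt1 (0.13 and -0.43, -0.56), Slbp (0.27 and -0.23, -0.50), Top2a (0.39 and -0.08, -0.47) and Kif11 (0.21 and -0.11, -0.32). Genes below 0 at E8.5 and above it at E9.5 were Ube2c (-0.25 and 0.22, 0.48) and Birc5 (-0.07 and 0.20, 0.26). Over all genes tested the medians were 0.04 at E8.5 and -0.26 at E9.5, so a shift of that sign is shared by the bulk of genes, and of these 10 genes only Ube2c and Birc5 went against it.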

How the results depend on the processing

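No paired analysis was possible because each group holds 1 library. Of the values recomputed under an alternative, 45 moved by less than their counting interval (for counts, within 1.5 times). Of the rest, 39 moved by more and 3, whose interval had lain off 0, changed sign. Some of the 45 values could not move, so they do not check the result. All 45 genes had passed the main UMI minimum, so lower minimums could not change how many were counted. Mesenchyme was the last gate, so keeping only cells that passed exactly 1 gate left its cells and ratios the same. Under TMM and median of ratios scaling the E9.5 genotype ratio of the G2/M sum changed sign, from -0.20 to 0.055 and 0.045, and that of the S sum was -0.26 and -0.27. The E8.5 ratios were -0.11 and -0.10 for G2/M and, in place of 0.02, -0.018 and -0.013 for S. The stage ratio in Ctrl was 0.0041 and, with the sign changed, -0.018 for G2/M, and 0.10 and 0.078 for S. Genes lower at E9.5 in cKO numbered 3 and 4 in place of 21, and genes higher with stage in Ctrl 5 under both in place of 16. With the length-class median taken off (added after the data were seen) these counts were 3 and 3. With each cell weighted equally the ratios were -0.10 (G2/M, E8.5), -0.50 (S, E9.5), 0.30 (G2/M, stage) and 0.40 (S, stage), and with the gated makeup of Ctrl -0.22 (G2/M, E9.5), -0.54 (S, E9.5), 0.30 (G2/M, stage) and 0.47 (S, stage). The cKO minus Ctrl share of cells in the G2/M range was -13.5 percentage points at E9.5 and -1.97 at E8.5 without Cks2, in place of -5.41 and 2.75, and 24.1 at E8.5 without thinning. The S share was 21.9 at E8.5 without thinning and -11.3 at E9.5 when thinned to 10000 UMIs.

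For gates set on unthinned cells, cardiomyocyte-gated against other cells was -0.59 in Ctrl E9.5, and the E9.5 genotype ratios were -0.47 (S) and -0.21 (G2/M) in Arg1 and -0.72 (S) and -0.23 (G2/M) in branchiomeric cells. With 1 more marker needed they were -0.68 (cardiomyocyte), -0.53 (S, mesenchyme), -0.37 (S, Arg1) and -0.22 (G2/M, Arg1). With cells passing exactly 1 gate they were -0.47 (S) and -0.057 (G2/M) in Arg1. Cardiomyocyte cells passing exactly 1 gate and branchiomeric cells with 1 more marker gave no value, having under 50 cells in a library. The cause of these moves was not tested, beyond the shift that each scaling adds to every gene. Depth limits Cdkn1a most, with 43 UMIs in cKO E8.5.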
